A study of Mus musculus with 4 samples.

Results

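Epi-NMP cells were compared with Epi-CE, the population they were grown from, over the cell barcodes marked TRUE in a column that the deposited cell table calls use. These were 3497 of the 10579 barcodes of the series, 1111 in Epi-NMP and 2386 in Epi-CE. Single-cell transcriptomes of 4 mouse cultures had been made with the 10x Chromium system, with 1 library for each culture. Both cultures compared here were labelled with the embryonic stem cell line E14Tg2a at passages 15 to 30, and both were grown on fibronectin at 0.5% in N2B27, a serum-free medium. Epi-CE came from epiblast stem cells held in FGF2 at 12 ng/ml and activin A at 25 ng/ml. Activin A was removed and FGF2 was raised to 20 ng/ml, and on day 3 CHIR99021, a GSK3 inhibitor that turns on the WNT pathway, was added at 3 µM. For Epi-NMP, Epi-CE cells were detached with Accutase, seeded again and kept for 2 days with the same doses of FGF2 and CHIR99021. The extra days, the detachment and the library therefore cannot be told apart, and no difference below has a replicate check.

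Neuromesodermal progenitors are cells of the tail end of the embryo that can form both spinal cord and the paraxial mesoderm that makes somites. They are usually recognised by joint expression of the mesodermal factor gene T and the neural factor gene Sox2, and WNT and FGF signals maintain them. Hox genes lie in 4 chromosomal clusters and are switched on from low to high paralogue number as the body axis lengthens, so the numbers expressed tell how far along the axis a cell belongs.

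Counts were of unique molecular identifiers (UMIs), which tag single captured RNA molecules. The flagged cells held 22261452 UMIs in Epi-NMP, with a median of 19252 per cell, and 58663735 in Epi-CE, with a median of 22613.5. The flag kept 42.3% of the Epi-NMP barcodes and 96.8% of the Epi-CE barcodes. The 1513 Epi-NMP barcodes left out had a median of 4720 UMIs, and a median of 4.24% of their UMIs came from mitochondrially encoded genes, against 2.59% in the Epi-NMP cells kept and 2.26% in the Epi-CE cells kept. Flagged cells of the 2 libraries shared 1 barcode sequence. Hprt, the purine salvage gene whose loss marks E14Tg2a, was at 0.801 UMIs per 1000000 (CPM) in Epi-CE and at 0.943 CPM in Epi-NMP, against 203.9 CPM in ES-NMP and 137.8 CPM in Epi-CE-T. Those other libraries carry the same line label. ES-NMP came from embryonic stem cells kept in N2B27 and then given CHIR99021 at 3 µM, and Epi-CE-T from a Bra:GFP reporter line treated like Epi-CE and sorted for GFP, which marks T.

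Summed over cells, 12628 genes had at least 50 UMIs in the 2 libraries together and are called measured below. Of these, 706 (5.59%) were at least 2-fold higher in Epi-NMP and 1729 (13.7%) were at least 2-fold lower, with a median log2 ratio of -0.01 over all measured genes. The share of cells with at least 1 UMI of a gene was compared after every cell was thinned at random to 8000 UMIs, and 92 genes (0.729%) had a share at least 20 percentage points higher in Epi-NMP and 143 (1.13%) a share at least 20 points lower. Counts of list members below can be read against these percentages. A gene near 0 in 1 library passed the minimum only through the other, so its direction followed from the filter. Intervals in brackets are exact 95% intervals that cover counting error only.

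**Figure D1:**
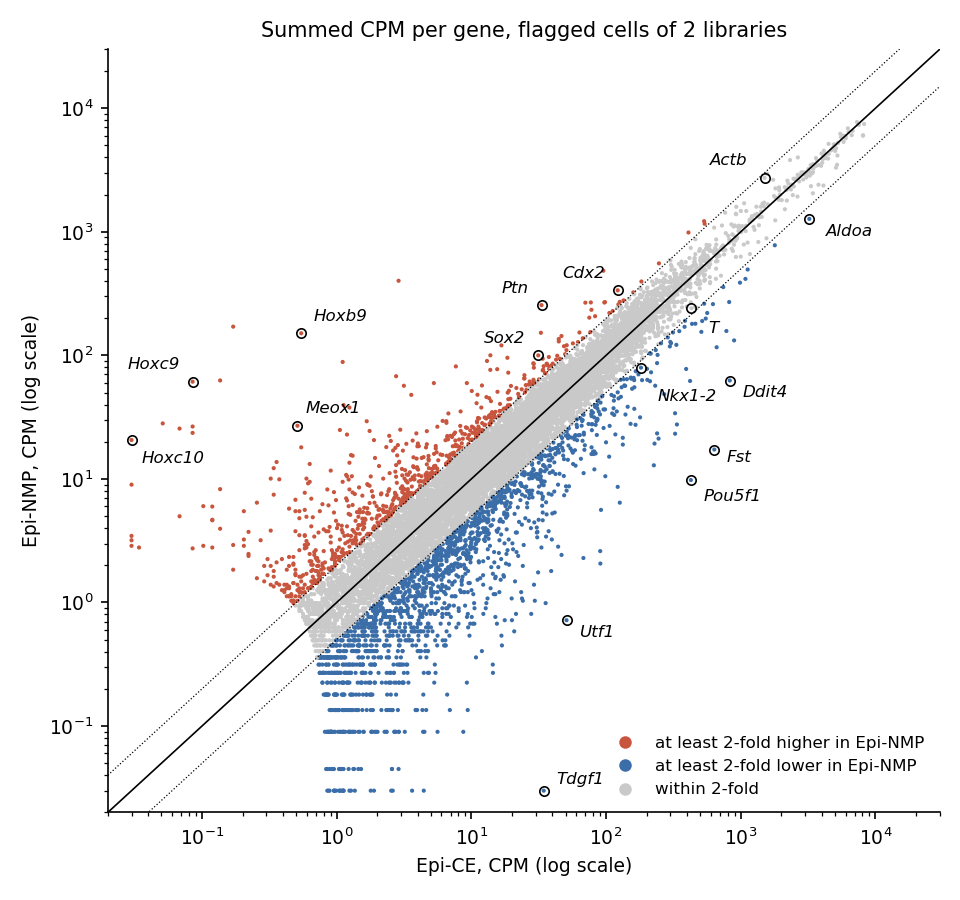
Summed CPM of each measured gene in Epi-CE (horizontal) and Epi-NMP (vertical), both on log scales, with the line of equal levels and dotted lines at 2-fold; a gene with 0 or 1 UMIs in Epi-CE, or 0 in Epi-NMP, is drawn at the lowest position used. The 706 higher genes include a group of Hox genes near 0 in Epi-CE, and the 1729 lower genes include Pou5f1, Fst and Ddit4, which were abundant in Epi-CE.

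Ranked by the interval bound nearest to 1, 12 of the 15 genes that stood highest in Epi-NMP over Epi-CE were Hox genes of paralogue groups 4 to 10. The others were Calml4, a calmodulin-like gene, the somite homeobox gene Meox1 and the ephrin receptor gene Epha5. The 15 at the other end included the pluripotency and Nodal pathway genes Tdgf1, Utf1, Pou5f1, Fst and Lefty1, the sugar-splitting enzyme gene Aldoc and the epithelial adhesion gene Epcam. Pou5f1, which encodes the pluripotency factor Oct4 (chromosome 17, 35506018 to 35510772, plus strand), was at 426.1 CPM in Epi-CE and 9.79 CPM in Epi-NMP, a 43.5-fold lower level (38.1 to 49.95). Its share of cells was 86.3% in Epi-CE and 3.42% in Epi-NMP, and without thinning 93.9% and 7.65%. In Epi-NMP the Pou5f1 share was 3.24% of cells with a T UMI and 3.62% of cells without one. Whether a share this low comes from expression or from free RNA in the droplets was not tested, here or for other low shares below.

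**Figure D2:**
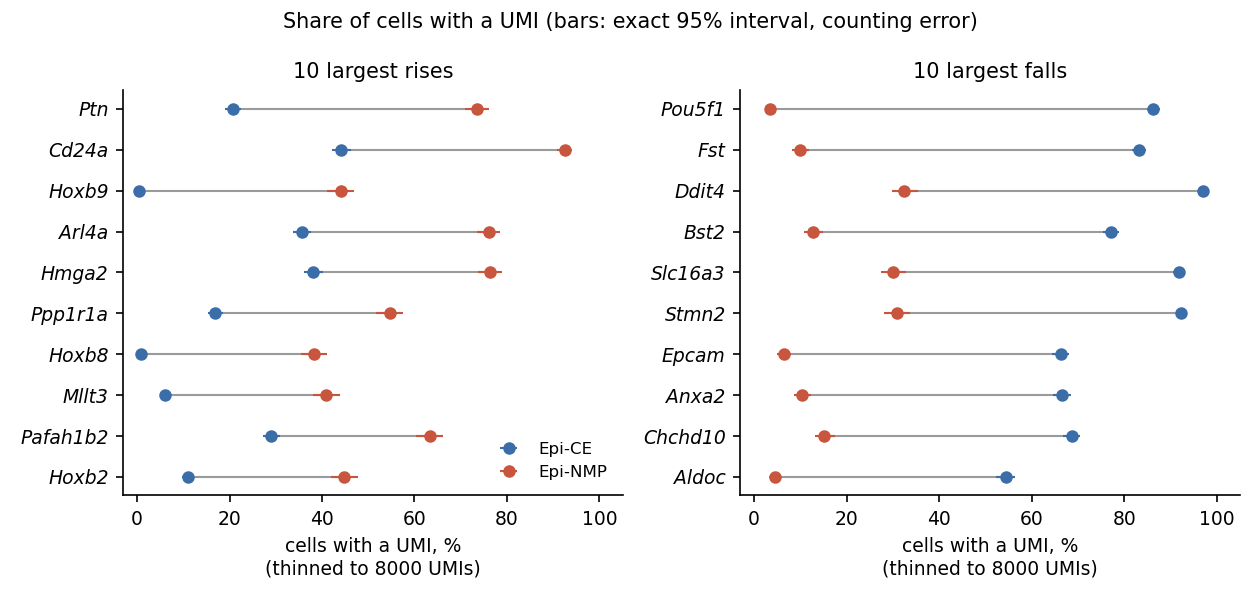
Share of cells with at least 1 UMI, after thinning to 8000 UMIs, for the 10 genes with the most increased (left) and the 10 with the most decreased (right) share; points are the 2 libraries and bars are exact 95% intervals. Ptn went from 20.7% to 73.5% and Pou5f1 from 86.3% to 3.42% of cells. The genes were picked by the size of this difference, so the gap between the libraries follows from the choice.

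Hox genes were on the whole absent or rare in Epi-CE and present in most Epi-NMP cells. The table held 39 Hox genes, of which 29 were measured, and 27 of these were at least 2-fold higher in Epi-NMP, against 5.59% of all measured genes. None of the 29 was at least 2-fold lower. The median number of Hox genes with a UMI per thinned cell was 0 in Epi-CE, where 58.5% of cells had none, and 5 in Epi-NMP, where 13.3% of cells had none. At least 5 Hox genes were seen in 0.587% of Epi-CE cells and in 53% of Epi-NMP cells.

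In paralogue groups 1 to 4, which pattern the hindbrain and neck, 9 of 11 measured genes were higher (median log2 ratio 2.94). Hoxb1, among the first genes switched on, was an exception. It was at 24.5 CPM in Epi-CE and 13.7 CPM in Epi-NMP, 1.795-fold lower (1.585 to 2.04). Its neighbour Hoxb2 was at 18.5 CPM in Epi-CE and 95.6 CPM in Epi-NMP, and its share went from 10.98% to 44.8% of cells. Hoxb4 was at 3.15 CPM in Epi-CE and 56.7 CPM in Epi-NMP.

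All 14 measured genes of groups 5 to 9, which pattern the trunk, were higher (median 5.98). Hoxa5, Hoxa7, Hoxb7, Hoxb8 and Hoxd9 had at least 50 UMIs in Epi-CE alone. The others passed the minimum only through Epi-NMP, so they could not have come out lower. At least 1 UMI of these genes was found in 7.46% of Epi-CE cells and 73.6% of Epi-NMP cells. Hoxb9 (chromosome 11, 96271457 to 96276595, plus strand) was at 0.5455 CPM in Epi-CE and 150.9 CPM in Epi-NMP, 276.6-fold higher (195.6 to 405.1). Its share was 0.419% of Epi-CE cells and 44.0% of Epi-NMP cells (unthinned 1.17% and 55.7%). Hoxc9 (chromosome 15, 102976439 to 102985099, plus strand) rested on 5 UMIs in Epi-CE and 1363 in Epi-NMP, 718-fold higher (307.1 to 2216). Hoxb8 was 79.8-fold higher (62.3 to 103.8) and Hoxa7 24.55-fold higher (20.9 to 29.05). Within a paralogue group the clusters differed in size of share: of the group 9 genes, Hoxb9 was seen in 44.0%, Hoxc9 in 28.5%, Hoxd9 in 22.2% and Hoxa9 in 16.1% of Epi-NMP cells.

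Of 12 genes of groups 10 to 13, which pattern the lumbar region to the tail, 4 were measured and all 4 were higher. These 4 reached the minimum of 50 UMIs only through Epi-NMP, so their direction followed from the filter. Hoxc10 (chromosome 15, 102966796 to 102971893, plus strand) had 1 UMI in Epi-CE and 460 in Epi-NMP, or 20.7 CPM and 10.4% of cells. Hoxa10 had 1 UMI in Epi-CE and 200 in Epi-NMP, or 7.47% of cells. With 1 count on one side their ratios run from 216.5 to 47980 and from 93.5 to 20920. After thinning both had 0 UMIs in Epi-CE. With that 0 set to 3 counts, they were at least 128.9-fold and 68.0-fold higher. Hoxd10 was at 6.02 CPM and Hoxd11 at 2.785 CPM in Epi-NMP, on 6 and 2 UMIs in Epi-CE. The remaining 8 genes had at most 25 UMIs in Epi-NMP.

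**Figure D3:**
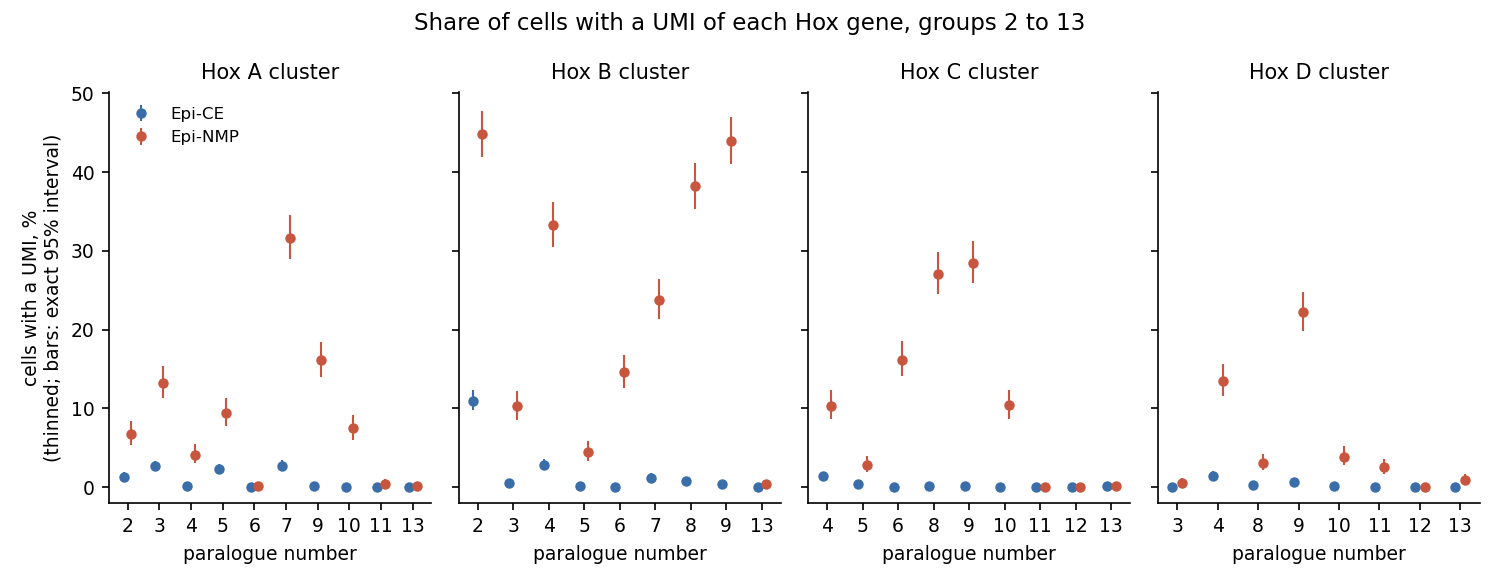
Share of cells with at least 1 UMI of each Hox gene of groups 2 to 13 after thinning to 8000 UMIs, by cluster and paralogue number, in Epi-CE (blue) and Epi-NMP (red); bars are exact 95% intervals. Epi-NMP lies above Epi-CE from group 2 to group 10, and Hoxb9 reaches 44.0% of Epi-NMP cells.

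Genes that act with or upstream of Hox genes were examined in the same cells. Cdx2, a caudal homeobox factor that binds Hox clusters (chromosome 5, 147300805 to 147307270, minus strand), was at 122 CPM in Epi-CE and 336 CPM in Epi-NMP, 2.755-fold higher (2.67 to 2.85). Its share was 40.5% and 67.6% of cells. Cdx1 went the other way, at 42.1 CPM in Epi-CE and 10.96 CPM in Epi-NMP. In Epi-NMP, Hoxb9 was seen in 60.9% of the 751 cells with a Cdx2 UMI (57.3 to 64.4) and in 8.89% of the 360 cells without one (6.16 to 12.3). In Epi-CE the same shares were 0.517% and 0.352%, and free RNA as their source was not tested. Hoxb9 was also seen in 81.9% of the 116 Epi-NMP cells with Hoxc10. These pairs of genes were picked after values had been seen, all cells were thinned to the same depth, and cells of 1 library are not replicates, so the shares are descriptions.

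Of the Hox cofactor genes, Meis2 was at 15.6 CPM in Epi-CE and 50.7 CPM in Epi-NMP, and Meis1 at 0.580 and 5.615 CPM. Gdf11, a secreted factor that drives the switch from trunk to tail, was at 0.904 CPM in Epi-CE and 11.7 CPM in Epi-NMP, 12.9-fold higher (9.59 to 17.7). Polycomb complexes hold Hox clusters silent. In the Polycomb and DNA methylation list, which also holds demethylase genes, 4 of 23 measured genes were higher and 2 were lower. Bmi1 was 4.51-fold, Cbx2 2.61-fold and Cbx8 2.44-fold higher, while Cbx7 was 5.68-fold and Ezh1 2.07-fold lower (Ezh1 3.19-fold with thinned counts). Ezh2, Suz12 and Eed stayed within 2-fold.

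The genes that define caudal epiblast and neuromesodermal cells went in both directions. Of 24 measured genes of that list 10 were higher and 5 were lower, and the median log2 ratio was -0.20. T (chromosome 17, 8434423 to 8442496, plus strand) was at 430.5 CPM in Epi-CE and 240.6 CPM in Epi-NMP, 1.79-fold lower (1.74 to 1.84). Sox2 (chromosome 3, 34650405 to 34652461, plus strand) was at 31.4 CPM in Epi-CE and 99.99 CPM in Epi-NMP, 3.19-fold higher (2.99 to 3.39). Nkx1-2, a homeobox gene of the caudal epiblast (chromosome 7, 132594878 to 132599637, minus strand), was at 181.6 CPM and 79.5 CPM, 2.28-fold lower (2.17 to 2.40). The genes differed in how many cells showed them: 78.9% of Epi-CE cells had a T UMI and 18.99% a Sox2 UMI, against 52.7% and 43.0% of Epi-NMP cells.

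Both T and Sox2 were seen in 14.7% of thinned Epi-CE cells (13.3 to 16.2) and in 21.5% of thinned Epi-NMP cells (19.1 to 24). Cells with T alone made up 64.2% of Epi-CE and 31.2% of Epi-NMP. Cells with Sox2 alone made up 4.32% of Epi-CE (3.54 to 5.21) and 21.5% of Epi-NMP, and cells with neither 16.8% and 25.7%. T was about as frequent with a Sox2 UMI as without one. In Epi-NMP T was seen in 50% of cells with Sox2 (45.4 to 54.6) and in 54.8% of cells without it (50.8 to 58.7), and in Epi-CE in 77.3% and 79.3%. Cdx2 did differ with Sox2, at 88.1% of Epi-NMP cells with Sox2 and 52.1% of those without. Nkx1-2 was found in 48.5% of Epi-NMP cells with Sox2 and 26.9% of those without, but in 26.6% of cells with T and 46.9% of those without T. In Epi-CE Nkx1-2 was instead a little more frequent with T, at 63.5% against 57.1%.

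Among the other caudal genes, some WNT and FGF ligand genes were lower and others higher. Wnt8a was at 46.7 CPM in Epi-CE and 2.43 CPM in Epi-NMP, 19.25-fold lower (14.7 to 25.7). Wnt3 was 5.03-fold and Wnt3a 2.39-fold lower, and Wnt5a, a non-canonical ligand gene of the elongating axis, was at 5.59 CPM in Epi-CE and 26.5 CPM in Epi-NMP. The R-spondin gene Rspo3, whose product raises WNT receptor levels, was at 77.9 CPM in Epi-CE and 233.7 CPM in Epi-NMP, in 32.0% and 52.9% of cells. In Epi-NMP it was seen in 74.4% of cells with T and 29% of those without. Of 25 measured WNT ligand and receptor genes 5 were higher and 5 lower. Of 16 WNT targets and feedback genes 2 were higher and 1 lower. Axin2, the standard WNT readout, was at 18.2 CPM in Epi-CE and 27.7 CPM in Epi-NMP, and Sp5 at 219.8 and 160.8 CPM, both within 2-fold.

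Fgf5, a marker gene of the primed epiblast, was at 21.1 CPM in Epi-CE and 1.48 CPM in Epi-NMP, and Fgf8 at 95.8 and 66.7 CPM. Fgf17, Fgf3 and Fgf18 were 3.65-fold, 3.33-fold and 8.28-fold higher in Epi-NMP at levels of 4.94 to 11.8 CPM. The FGF binding protein gene Fgfbp1 was at 122 CPM in Epi-CE and 8.625 CPM in Epi-NMP. Of 15 measured feedback genes of the FGF pathway 5 were higher, among them Etv4 at 43.4 and 99.2 CPM, and 1 was lower, the phosphatase gene Dusp4 at 81.6 and 31.5 CPM.

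Most genes of the core pluripotency list were lower. Of 15 measured members 9 were lower, 5 were within 2-fold and 1, Sox2, was higher (median log2 ratio -1.84). Tdgf1, the Nodal co-receptor gene also known as Cripto, had 2021 UMIs in Epi-CE and 0 in Epi-NMP, at least 255.6-fold lower against a floor of 3 counts.  Utf1 was at 50.9 CPM in Epi-CE and 0.719 CPM in Epi-NMP, 70.8-fold lower (43.5 to 124), and Nanog at 14.5 and 0.2695 CPM, 53.6-fold lower. Sall4, Trim28 and Mybl2 were within 1.1-fold. In the primed epiblast list 7 of 17 measured genes were lower and 2 higher. Otx2 was at 3.89 CPM in Epi-CE and 0.135 CPM in Epi-NMP, and Pou3f1 at 36.2 and 5.17 CPM, whereas the DNA methyltransferase genes Dnmt3a and Dnmt3b stayed within 2-fold.

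In the Nodal and Activin list 9 of 15 measured genes were lower and 0 higher (median -2.54). The ligand activin A had been withdrawn before CHIR99021 was added, on the way to both cultures. The ligand gene Nodal was at 21.4 CPM in Epi-CE and 3.68 CPM in Epi-NMP, 5.80-fold lower (4.64 to 7.35). The inhibitor gene Lefty1 was at 90.7 and 2.07 CPM, 43.9-fold lower (32.9 to 60.0; 29-fold with thinned counts), and 94.7% of its Epi-CE UMIs lay in the 10% of cells with most of them. Fst, which encodes the activin-binding protein follistatin (chromosome 13, 114452290 to 114458951, minus strand), was at 636.3 CPM in Epi-CE and 17.3 CPM in Epi-NMP, 36.8-fold lower (33.3 to 40.8). It was seen in 83.3% of Epi-CE cells and 9.90% of Epi-NMP cells (unthinned 92.3% and 14.3%). The receptor gene Acvr2b and the transducer genes Smad2 and Smad3 were within 2-fold.

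Of 16 measured neural progenitor genes 10 were higher and 2 lower (median log2 ratio 1.87, and 1.20 with no minimum count). Ncam1, a neural cell adhesion molecule gene, was at 16.7 CPM in Epi-CE and 120.4 CPM in Epi-NMP, 7.20-fold higher (6.69 to 7.76), and in 12.5% and 46.1% of cells. In Epi-NMP Ncam1 was seen in 62.6% of cells with Sox2 and 33.6% of those without. Irx3 was at 4.67 and 24.35 CPM, Zic1 at 1.67 and 29.3 CPM, and Hes5, a Notch target gene, at 0.614 and 9.21 CPM. Pax3, a gene of dorsal neural tube and somite, was at 0.205 and 5.48 CPM. Sox3 was within 2-fold, at 1.89 CPM in Epi-NMP, and the intermediate filament gene Nes was 2.71-fold lower. Irx3 was seen in 18.2% of Epi-NMP cells with Sox2 and 11.4% of those without. Zic1 was not more frequent with Sox2, at 10.9% (8.23 to 14) against 14.1% (11.4 to 17). It was seen in 20.7% of Epi-NMP cells with Meox1 and 12% of those without. Cells with at least 3 of the 8 neural markers made up 0% of Epi-CE and 0.63% of Epi-NMP.

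The neuronal list had no common direction. Of 13 measured genes 6 were higher and 3 lower, and its median log2 ratio was -0.25 in flagged cells and 0.35 over all barcodes. Neurog2, a proneural factor gene, was at 0.0682 CPM in Epi-CE, on 4 UMIs, and 4.99 CPM in Epi-NMP, and its ratio was 26.5 with thinned counts. Stmn2, a microtubule regulator gene used as a neuronal marker, was at 662.1 CPM in Epi-CE and in 92.3% of its cells, and at 116.3 CPM and 30.9% in Epi-NMP. The neuronal gene Dcx had 1 UMI in Epi-CE and 0 in Epi-NMP. Cells with at least 3 of the 6 neuronal markers made up 0.168% of Epi-CE and 0.27% of Epi-NMP.

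Genes of paraxial mesoderm were higher as a group. In the presomitic list 12 of 19 measured genes were higher and 0 lower (median log2 ratio 1.59), and in the somite list 8 of 11 were higher and 1 lower (median 1.72). Meox1 (chromosome 11, 101877510 to 101894374, minus strand) was at 0.511 CPM in Epi-CE and 26.95 CPM in Epi-NMP, 52.7-fold higher (36.5 to 78.8). Its share was 0.503% of Epi-CE cells and 7.83% of Epi-NMP cells. Tcf15, a somite epithelium factor gene, was at 13.98 and 42.6 CPM, Foxc2 at 0.119 and 4.67 CPM, and Mesp2, which sets the somite boundary, at 0.256 and 6.42 CPM. The early presomitic factor gene Tbx6 was within 2-fold, at 9.61 CPM in Epi-CE, and Msgn1 had 11 UMIs in Epi-CE and 0 in Epi-NMP, which are too few for a call.

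Somite genes were seen in a subset of Epi-NMP cells. Meox1 was found in 46.4% of the 69 cells with an Aldh1a2 UMI (34.3 to 58.8) and in 34.2% of the 152 cells with Tcf15, but in 4.39% of the 478 cells with Sox2 (2.74 to 6.64) and 10.4% of those without Sox2. Hoxb9 was found in 20.7% of the 87 cells with Meox1 (12.7 to 30.7) and 46% of the other cells. The clock gene Hes7, which oscillates as somites form, was spread more widely. It was at 13.8 CPM in Epi-CE and 100.1 CPM in Epi-NMP, 7.23-fold higher (6.67 to 7.845), and was seen in 37.9% of Epi-NMP cells with Meox1 and 37.5% of those without.

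In the Notch and clock list 7 of 16 measured genes were higher and 1 lower, among them the target genes Hey1 (4.07 and 18.4 CPM) and Nrarp (11.4 and 30.9 CPM) and the ligand gene Dll1 (9.41 and 21.4 CPM). Dll3 was at 153.7 and 87.7 CPM and Hes1 at 183 and 142.6 CPM, within 2-fold. Among 11 measured genes of retinoic acid signalling 5 were higher and 1 was lower. Stra6, which encodes a retinol transporter, was at 3.58 CPM in Epi-CE and 47.9 CPM in Epi-NMP, 13.4-fold higher (11.5 to 15.6). The synthesis gene Aldh1a2 was 3.30-fold and the breakdown gene Cyp26a1 2.32-fold higher. Of 19 BMP pathway genes 4 were higher and 0 lower: Msx1, Gdf11, Id2 and Id4. Id2 was at 13.8 and 76.3 CPM, while Id1 and Id3 were at 83.9 and 60.2 CPM and at 174.8 and 131.7 CPM.

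Markers of other fates were summed in the same way. The 5 lateral mesoderm markers summed to 0.375 CPM in Epi-CE and 0.629 CPM in Epi-NMP, the 7 blood and endothelium markers to 2.39 and 3.77 CPM, and the 5 neural crest markers to 1.93 and 1.98 CPM. The wider lists held genes that differed. Of 8 measured neural crest genes 4 were higher and 1 lower, with Sox9 at 12.0 and 28.3 CPM. Of 6 lateral and intermediate mesoderm genes 1 was higher, Prrx1 at 0.631 and 9.48 CPM, and 3 were lower. The 6 node and notochord markers, all with a UMI in both, summed to 79.8 and 53.5 CPM, and 2.93% of Epi-CE cells and 1.98% of Epi-NMP cells had at least 3 of them. The 7 endoderm markers summed to 7.96 and 16.1 CPM, with Ttr and Hnf4a at 0 in both and Afp at 0 in Epi-CE. Among them Foxa1, also in the node and notochord list, was at 3.49 and 11.3 CPM and Gata6 at 0.699 and 2.65 CPM. Sox17 was at 2.54 and 1.08 CPM and Gata4 at 1.23 and 0.943 CPM. In the wider endoderm list 3 of 11 measured genes were higher and 5 lower. The 7 smooth muscle and fibroblast markers, all present in both, summed to 62.7 and 29.4 CPM.

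Epithelial genes were lower almost throughout. Of 21 measured members 19 (90.5%) were lower and 0 higher, against 13.7% of all measured genes, with a median log2 ratio of -2.92. Cdh1, which encodes E-cadherin, was at 23.8 CPM in Epi-CE and 1.08 CPM in Epi-NMP, 22.0-fold lower (14.75 to 34.5), and 35.1-fold with thinned counts. Epcam was at 226.3 and 12.9 CPM, 17.55-fold lower (15.6 to 19.8), and in 66.3% and 6.39% of cells. The keratin genes Krt8, Krt18 and Krt19, which build the filaments of simple epithelia, were at 325.2, 393 and 325.4 CPM in Epi-CE and at 34.0, 77.6 and 23.2 CPM in Epi-NMP. Claudin genes of tight junctions were lower, Cldn3 by 20.9-fold and Cldn4 by 23.3-fold. The desmosome gene Dsp and Krt7 stayed within 2-fold. The median cell held 8 UMIs of the list in Epi-CE and 1 in Epi-NMP, and 66.3% of Epi-NMP cells lay below the 10th percentile of Epi-CE cells.

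Epcam was less frequent in Epi-NMP both in cells with and in cells without T or Sox2. In Epi-CE it was seen in 67.8% of cells with Sox2 and 65.9% without, and in 64.9% of cells with T and 71.4% without. In Epi-NMP these shares were 6.28% and 6.48%, and 6.83% and 5.90%. Krt8 was seen in 58.8% of Epi-CE cells with the node and endoderm factor gene Foxa2 and in 50.3% of those without. The neural and mesenchymal cadherin gene Cdh2 went up as Cdh1 went down, at 37.6 and 96.98 CPM, and Cdh11 was at 0.375 and 9.93 CPM. In the mesenchymal transition list 5 of 16 measured genes were higher and 2 lower (median log2 ratio 0.40). The other higher ones were the transcription factor genes Twist1 at 7.60 and 20.4 CPM, Zeb1 at 14.7 and 33.2 CPM, and Foxc2. The lower ones were the filament gene Vim at 986.3 and 387.5 CPM and the matrix gene Sparc at 299.9 and 128.4 CPM. Snai1, at 15.6 and 11.5 CPM, was within 2-fold.

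Calcium-binding genes of the annexin and S100 families were lower in 10 of 14 measured members, with Anxa1 the single higher one. Anxa2 was at 228.9 CPM in Epi-CE and 19.3 CPM in Epi-NMP, and S100a10, whose product binds annexin A2, at 892.3 and 132.1 CPM. Contractile genes were lower as well, with Tagln at 33.1 and 2.785 CPM and Cnn1 at 10.5 and 0.674 CPM. In that smooth muscle and fibroblast list 9 of 14 were lower. Acta2, its best known marker, was at 12.7 and 15.5 CPM, within 2-fold, and Col3a1 was the 1 higher gene, at 0.136 and 8.265 CPM.

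In the interferon and antigen presentation list 14 of 18 measured genes were lower and 0 higher. Bst2, which encodes the antiviral membrane protein tetherin, was at 245.3 CPM in Epi-CE and 21.2 CPM in Epi-NMP, 11.6-fold lower (10.6 to 12.7), and in 77.2% and 12.7% of cells. The class I antigen genes H2-K1 and H2-D1 were at 105.4 and 81.8 CPM in Epi-CE and 15.1 and 16.7 CPM in Epi-NMP. Their partner B2m was within 2-fold, at 194.7 and 135.8 CPM. Ifitm1 went the other way, at 297.1 and 590.9 CPM, 1.99-fold higher (1.94 to 2.035). Genes of these families have close copies, and how reads that match several genes were counted was not given, so single values carry that uncertainty.

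Genes of glycolysis and its sugar and lactate transport were lower or within 2-fold. Of 21 measured members 12 (57.1%) were lower and 0 higher (median log2 ratio -1.18), and the lactate and pyruvate carrier gene Slc16a1 was at 35.5 CPM in Epi-CE and 43.35 CPM in Epi-NMP. The list summed to 24290 CPM in Epi-CE and 13830 CPM in Epi-NMP. Per thinned cell the median was 191 UMIs in Epi-CE (10th to 90th percentile 141 to 259.5) and 109 in Epi-NMP (74 to 141). Below the 10th percentile of Epi-CE lay 89.6% of Epi-NMP cells, and 0% lay above its 90th.

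Along the pathway, the sugar transporter gene Slc2a3 was at 509.7 CPM in Epi-CE and 154.9 CPM in Epi-NMP, 3.29-fold lower (3.175 to 3.41), whereas Slc2a1 was at 543.7 and 408.5 CPM. Of the hexokinase genes Hk1 was at 14.35 and 6.29 CPM and Hk2, within 2-fold, at 52.1 and 35.2 CPM. Gpi1 was 2.08-fold lower, and the phosphofructokinase genes Pfkl, Pfkm and Pfkp were 2.42-fold, 2.30-fold and 10.5-fold lower. Aldoa was at 3227 and 1272 CPM, 2.54-fold lower (2.51 to 2.57), and its paralogue Aldoc (chromosome 11, 78322968 to 78327781, plus strand) at 126.4 and 6.42 CPM, 19.7-fold lower (16.7 to 23.4). Tpi1 was at 1125 and 495.3 CPM. The later enzymes were within 2-fold: Gapdh was 1.49-fold, Pgk1 1.95-fold, Pgam1 1.63-fold, Eno1 1.37-fold and Pkm 1.735-fold lower. Ldha, which makes lactate, was 1.675-fold lower, and the lactate exporter gene Slc16a3 was at 420.3 and 62.0 CPM, 6.775-fold lower (6.42 to 7.16). The pyruvate dehydrogenase kinase gene Pdk1 was at 78.1 and 32.2 CPM.

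Nuclear genes of oxidative phosphorylation did not share the difference. Of 24 measured genes 0 were higher and 1 was lower, Ndufa4l2, which low oxygen induces (4.04 and 0.539 CPM). The median per thinned cell was 103 UMIs in Epi-CE and 102 in Epi-NMP, with 7.02% of Epi-NMP cells below the 10th percentile of Epi-CE and 7.74% above its 90th. The 13 mitochondrially encoded genes summed to 22550 CPM in Epi-CE and 26140 CPM in Epi-NMP, and mt-Nd1 was 1.88-fold higher.

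In the hypoxia response list 11 of 17 measured genes were lower and 0 higher (median -1.45). Ddit4, an inhibitor of the growth kinase mTORC1 (chromosome 10, 59949669 to 59951834, minus strand), was at 828.5 CPM in Epi-CE and 62.6 CPM in Epi-NMP, 13.2-fold lower (12.55 to 13.97). Its share was 97.15% and 32.5% of cells (unthinned 99.9% and 55.2%). Ndrg1 was at 37.5 and 3.77 CPM, Egln3 at 31.6 and 4.67 CPM, and the mitophagy gene Bnip3 at 231.6 and 56.8 CPM. Vegfa, a classic target of low oxygen, was at 7.14 CPM in both libraries. Hif1a, whose product is the oxygen-sensing factor, was at 38.05 and 57.8 CPM.

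**Figure D4:**
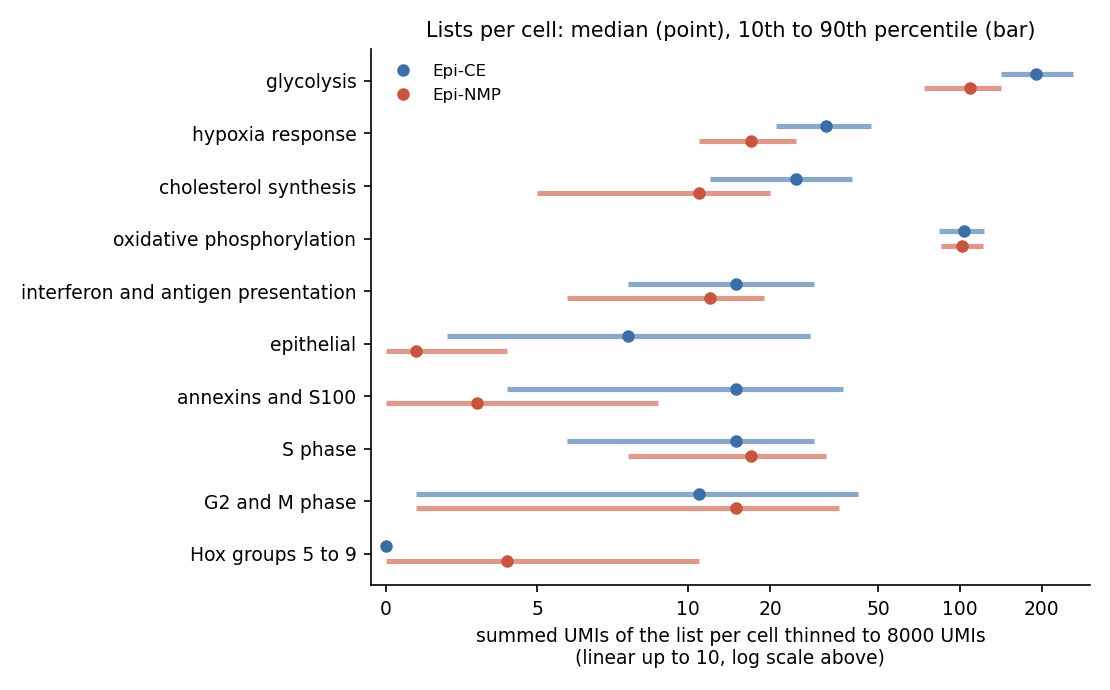
Summed UMIs of 10 gene lists per cell after thinning to 8000 UMIs, in Epi-CE (blue) and Epi-NMP (red); points are medians and bars run from the 10th to the 90th percentile of cells, on an axis linear to 10 and logarithmic above. The glycolysis bars meet at 141 UMIs, and the bars for oxidative phosphorylation overlie each other.

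Promoters of these genes were searched for the core of the hypoxia response element, acgtg on either strand (cacgt when read on the other), in the 300 bases from 250 before to 50 after each RefSeq gene start (GRCm38.p6). The core was found in 51.5% of 33 promoters of measured glycolysis genes, 68.8% of 16 promoters of measured hypoxia genes and 19.6% of 32851 promoters of all genes. Counted by gene, at least 1 promoter held it for 29.6% of measured genes. It did not divide the lists by response: of the glycolysis genes with a promoter in the table, 6 of 11 that were at least 2-fold lower had it, and 8 of 9 of the others. In the hypoxia list 7 of the 8 lower genes and 4 of the 5 others had it. Shown, with the core in capitals, are the genes with the lowest ratios among those lower genes whose promoter holds it, 2 from glycolysis and 1 from the hypoxia list. Aldoc, 1 of whose 2 promoters in the table is shown, lies at chr11:78322823-78323122 and Slc16a3 at chr11:120948817-120949116, both on the plus strand, and Ddit4 at chr10:59951721-59952020 on the minus strand.
Aldoc: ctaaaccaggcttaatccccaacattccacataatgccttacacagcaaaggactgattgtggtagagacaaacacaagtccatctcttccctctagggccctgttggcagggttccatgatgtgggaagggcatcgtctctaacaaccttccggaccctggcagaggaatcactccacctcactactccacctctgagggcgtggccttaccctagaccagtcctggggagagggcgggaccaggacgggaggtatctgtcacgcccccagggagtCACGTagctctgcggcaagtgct
Slc16a3: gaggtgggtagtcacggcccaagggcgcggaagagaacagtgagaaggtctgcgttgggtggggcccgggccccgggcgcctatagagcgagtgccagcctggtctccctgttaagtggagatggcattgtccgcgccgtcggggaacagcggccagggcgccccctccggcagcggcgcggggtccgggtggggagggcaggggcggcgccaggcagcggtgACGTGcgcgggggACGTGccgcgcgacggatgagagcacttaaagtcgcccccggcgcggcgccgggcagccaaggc
Ddit4: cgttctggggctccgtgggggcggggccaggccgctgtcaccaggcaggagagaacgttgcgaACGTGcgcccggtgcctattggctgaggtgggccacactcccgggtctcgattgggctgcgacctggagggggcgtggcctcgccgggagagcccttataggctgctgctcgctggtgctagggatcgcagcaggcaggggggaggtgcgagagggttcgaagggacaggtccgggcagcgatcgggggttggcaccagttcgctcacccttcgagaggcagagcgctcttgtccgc
Slc16a3 carried 2 copies and the others 1 each. A match describes the letters in this window and is not a bound site.

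Cholesterol synthesis genes were also lower. Of 18 measured genes 9 were lower and 0 higher (median -0.96), and 8 had a share of cells at least 20 points lower. Hmgcs1, at the start of the pathway, was at 460.5 CPM in Epi-CE and 180.3 CPM in Epi-NMP, 2.55-fold lower (2.47 to 2.64). Fdps was at 563.3 and 220.2 CPM and Dhcr7, at its end, at 162.2 and 55.2 CPM, 2.94-fold lower (2.77 to 3.12). Mvk was at 48.4 CPM in Epi-CE and 48.15 CPM in Epi-NMP. The median cell held 25 UMIs of the list in Epi-CE and 11 in Epi-NMP.

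A sterol and an interferon motif were searched in the same way, and 1 promoter of each list is shown with its match in capitals. The sterol regulatory element, tcacnccac, was found in 1 of 12 measured cholesterol genes with a promoter in the table, Hmgcs1 (chr13:119690101-119690400, plus strand), and in 1.38% of all measured genes. The core of the interferon-stimulated response element, gaaa followed by any 2 bases and gaaa again, was found in 8 of 15 measured interferon and antigen genes and in 3.45% of all measured genes. It was in 6 of the 12 lower genes and 2 of the other 3. Bst2 (chr8:71537423-71537722, minus strand) holds 2 overlapping copies.
Hmgcs1: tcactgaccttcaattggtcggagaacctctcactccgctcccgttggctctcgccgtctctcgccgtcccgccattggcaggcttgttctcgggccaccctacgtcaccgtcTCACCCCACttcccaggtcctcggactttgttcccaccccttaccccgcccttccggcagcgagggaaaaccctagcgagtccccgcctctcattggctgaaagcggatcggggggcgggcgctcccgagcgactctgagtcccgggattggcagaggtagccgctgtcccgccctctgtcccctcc
Bst2: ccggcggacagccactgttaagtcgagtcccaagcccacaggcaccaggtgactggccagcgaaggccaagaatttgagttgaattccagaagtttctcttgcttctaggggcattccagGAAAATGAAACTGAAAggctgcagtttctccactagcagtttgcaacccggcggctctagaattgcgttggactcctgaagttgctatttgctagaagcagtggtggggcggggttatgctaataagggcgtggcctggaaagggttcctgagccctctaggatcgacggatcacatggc

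Stress and growth lists moved less evenly. In the serine, one-carbon and amino acid stress list 8 of 19 measured genes were lower and 0 higher, with Asns at 549.2 and 198.5 CPM and Trib3 at 50.9 and 8.04 CPM. The serine synthesis genes Phgdh, Psat1 and Psph were within 2-fold. Of 16 immediate early genes, which respond fast to handling, 7 were lower and 0 higher: Jund was at 385.3 and 190.5 CPM, and Fos at 310.3 and 218.2 CPM was within 2-fold. Chaperone genes were within 2-fold in 13 of 14 cases, the exception being Hspb1 at 133.2 and 18.96 CPM.

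None of 20 S phase genes and none of 20 G2 and M phase genes passed 2-fold in either direction. The median cell held 15 UMIs of the S phase list in Epi-CE and 17 in Epi-NMP, and 11 and 15 UMIs of the G2 and M phase list. The cell cycle inhibitor gene Cdkn1c was at 246.8 CPM in Epi-CE and 555 CPM in Epi-NMP, and in each library over 51% of its UMIs lay in the 10% of cells with most of them.

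Of the genes with the largest change in share of cells, several belonged to no list. Ptn, which encodes the growth factor pleiotrophin (chromosome 6, 36714929 to 36810220, minus strand), was at 33.2 CPM in Epi-CE and 255 CPM in Epi-NMP, 7.69-fold higher (7.30 to 8.10). Its share was 20.7% and 73.5% of cells (unthinned 42.2% and 90.5%). The surface glycoprotein gene Cd24a (chromosome 10, 43578284 to 43584265, plus strand) was at 95.5 and 483.8 CPM, in 44.2% and 92.5% of cells. Mllt3, a chromatin reader gene, was at 7.67 and 81.35 CPM, 10.6-fold higher (9.56 to 11.8). Arl4a, Ppp1r1a and Pafah1b2 were 3.48-fold, 4.64-fold and 2.91-fold higher. On the lower side, Chchd10, a mitochondrial protein gene, was at 239.2 and 23.4 CPM. Alox15, a lipoxygenase gene that was picked by its ratio instead, was at 90.45 and 2.605 CPM.

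Hmga2, a chromatin protein gene of early embryonic tissues (chromosome 10, 120361275 to 120476469, minus strand), was at 70.2 CPM in Epi-CE and 266.9 CPM in Epi-NMP, in 38.1% and 76.4% of cells. It belongs to the developmental timing list, in which 3 of 14 measured genes were higher and 0 lower. Lin28a and the Igf2bp genes of that list were within 2-fold, and Lin28b was at 8.03 and 15.99 CPM. In the IGF system the growth factor gene Igf2 was at 2.455 and 22.3 CPM. Among its binding protein genes, Igfbp3 was at 335.7 and 27.6 CPM and Igfbp5 at 5.27 and 59.65 CPM. Of 16 imprinted genes 4 were higher and 4 lower, with the long RNA gene Meg3 at 820.1 and 270.1 CPM and Mest at 15.55 and 77.3 CPM.

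Extracellular matrix and guidance genes were more often higher than lower. Of 23 matrix and integrin genes 6 were higher and 2 lower, and the higher ones included the proteoglycan gene Vcan at 9.26 and 59.65 CPM and the fibrillin gene Fbn2 at 2.97 and 25.0 CPM. Of 25 ephrin and guidance genes 6 were higher and 2 lower. Epha5 was at 1.06 and 24.9 CPM and Sema3a at 0.324 and 10.1 CPM, while Epha1 was at 77.9 and 15.9 CPM. The blood and endothelium list had Lmo2 as its 1 higher gene, at 44.5 and 135.6 CPM, with the defining markers of those cells near 0 as given above.

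**Figure D5:**
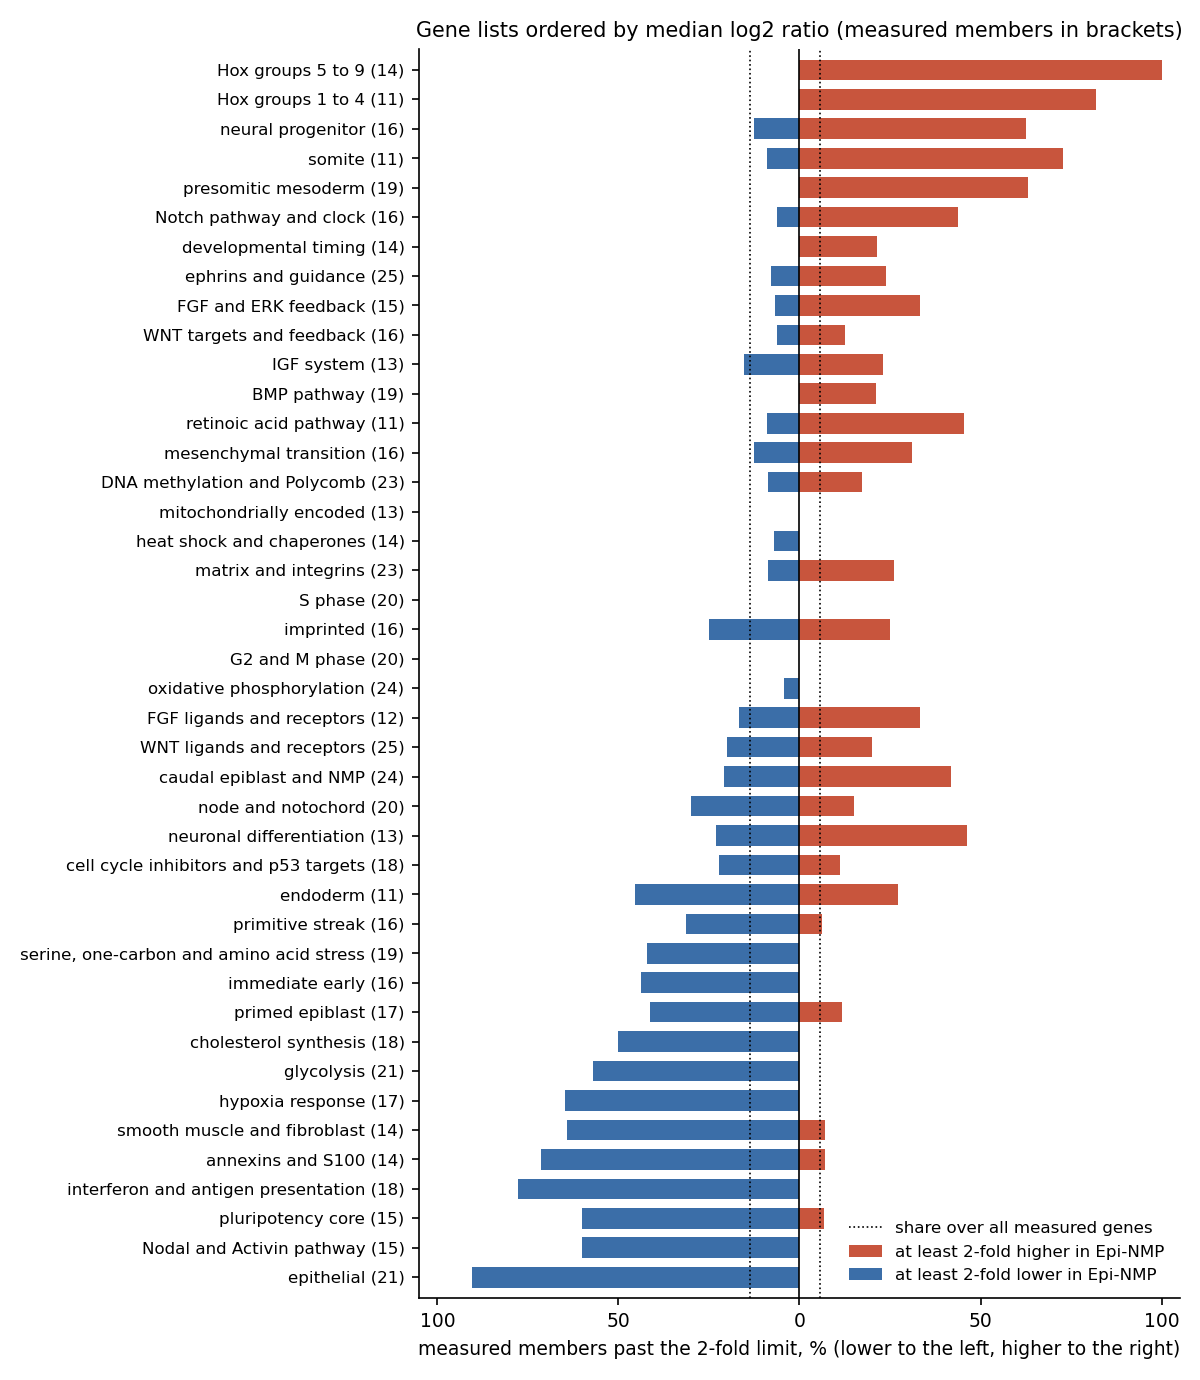
Percentage of the measured members of each list that were at least 2-fold higher (red, right) or lower (blue, left) in Epi-NMP, for lists with at least 10 measured members, ordered by median log2 ratio; dotted lines mark 5.59% higher and 13.7% lower over all measured genes. Hox genes of groups 5 to 9 (14 of 14 higher) and epithelial genes (19 of 21 lower) lie at the ends, and the S phase and G2 and M phase lists have no bar. Many of these Hox genes passed the minimum count only through Epi-NMP.

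The 10 largest increases in level were mostly in abundant, widely expressed genes, and they also held the growth factor gene Mdk, at 926 and 1593 CPM, and Marcksl1, at 539.1 and 1161 CPM. The largest decrease in level was that of the nuclear long RNA Malat1, at 8100 and 6041 CPM. H2afz, a histone variant gene, was at 2322 CPM in Epi-CE and 3807 CPM in Epi-NMP, and Nme1, a nucleotide kinase gene, at 534.2 and 1218 CPM. Ptma, Npm1, Eif5a and Hmgb1 were 1.13-fold to 1.61-fold higher, and these genes have many processed copies in the genome. Actb was at 1501 and 2731 CPM, 1.82-fold higher, while its paralogue Actg1 was at 5091 and 3305 CPM, 1.54-fold lower. Actb also moved with the depth of the barcodes. It was at 14590 CPM in the Epi-NMP barcodes marked FALSE, and its log2 ratio of 0.86 was 0.72 when cells outside the 10th to 90th percentile of depth were dropped and 1.94 over all barcodes. The part of depth in the Actb difference was not tested.

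The Epi-NMP barcodes marked FALSE were set beside those marked TRUE. Of 10661 genes 135 were at least 2-fold higher in the FALSE barcodes and 575 at least 2-fold lower. Abhd2 was 10.45-fold, Notch2 8.48-fold and Spry2 7.49-fold higher there, and the linker histone gene Hist1h1b was 4.25-fold lower. Some of the lists described above differed less between the marks than from Epi-CE: glycolysis summed to 11630 CPM in FALSE and 13830 CPM in TRUE barcodes, epithelial genes to 193.2 and 258.2 CPM, and Hox groups 5 to 9 to 579.5 and 613.3 CPM. Neural progenitor genes were at 536.4 CPM in FALSE, 382.2 CPM in TRUE and 181.2 CPM in Epi-CE barcodes, and somite genes at 100.6, 141.4 and 37.4 CPM. Matrix and integrin genes differed more between the marks, at 333.9 CPM in FALSE and 531.7 CPM in TRUE barcodes, than from Epi-CE, at 405.5 CPM. Mitochondrially encoded genes summed to 45350 and 26140 CPM.

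Values of the other libraries place some of these levels. Glycolysis genes summed to 12410 CPM in ES-NMP and 25450 CPM in Epi-CE-T, so Epi-NMP lay near ES-NMP and Epi-CE near Epi-CE-T. Hox groups 5 to 9 summed to 213.6 CPM in ES-NMP, 8.246 CPM in Epi-CE-T and 613.3 CPM in Epi-NMP. Cholesterol synthesis genes summed to 3226 CPM in Epi-CE and to between 1524 and 1810 CPM in the other 3 libraries.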

How the data were processed

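Single-cell RNA was measured in 4 libraries, grouped by sample title, and 2 of them were compared here. The submitters' processing notes name the tools Cell Ranger 1.3.1 and Seurat 2.0 and the build mm10. The deposited matrix holds UMI counts, whole numbers for each gene in each cell that the authors had not normalized. How reads that match several genes were counted, and on which strand, is not given in the sources used here. No label explains the TRUE mark, but every TRUE barcode had over 8000 UMIs and over 2500 genes. No doublet caller was run.

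Counts were summed per library and expressed per 1000000. Each group had 1 library, so there is no test, and fold changes carry exact conditional-binomial, levels exact Poisson and shares exact Clopper-Pearson 95% intervals. A count of 0 was set to 3 counts. Named genes were the 15 highest and 15 lowest ratios (ranked by the nearer bound, at least 200 UMIs and 20 CPM), the 10 largest changes in level and in share each way, the 3 extremes of each list, and T, Sox2, Nkx1-2, Cdx2, Hox and glycolysis genes; ribosomal protein, mitochondrially encoded, predicted and antisense genes were left out of the ranks. Genes outside this rule were named from their lists after their values were seen. The comparison, the 49 lists and the rules were chosen with earlier results of these data known. Interval coverage was tested on simulated data. Loci are from GENCODE M21 (GRCm38, the same assembly as mm10). Python 3.11.15, scipy 1.17.1, edgeR 4.0.16 (TMM factors) and DESeq2 1.42.0 (size factors) were used. Alternatives changed the scaling, the barcodes, the minimum count and the thinning depth. Some named results are not reported here.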

Additional observations from a re-analysis of the deposited data

How the results depend on the processing

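Under 9 alternatives for scaling or choice of cells, between 649 and 748 genes were at least 2-fold higher in Epi-NMP and between 1591 and 1850 at least 2-fold lower. A minimum of 200 UMIs gave 461 higher and 1077 lower, and no minimum gave 1751 and 2626, so that 40% of the called genes were higher, against 29% with the minimum of 50. With cells thinned to 4000 UMIs 39 genes had a share at least 20 points higher and 85 a share at least 20 points lower, and without thinning 589 had a share at least 20 points lower. No scaling moved the median log2 ratio of all measured genes by more than 0.02, and all barcodes together gave -0.06. Of 490 medians of gene lists 12 moved by over 1.5 times. The neuronal list changed sign, from -0.25 to 0.35 over all barcodes, 1.22 when cells outside the 10th to 90th percentile of depth were dropped and 0.40 with no minimum, and the endoderm list went from -0.38 to -1.05 when those cells were dropped and -1.19 without the 5% of cells with most UMIs. With no minimum the Nodal list went from -2.54 to -1.71, Hox groups 10 to 13 from 7.70 to 3.51, neural progenitor from 1.87 to 1.20, neural crest from 1.07 to 0.38 and lateral mesoderm from -0.72 to 0.00. Over all barcodes the log2 ratio of Actb went from 0.86 to 1.94, that of Sp8 from 0.90 to 1.64 and that of Furin from 0.67 to 1.67. Thinned counts gave 1.13 for Actb, and moved the pluripotency core median from -1.84 to -2.85 and Otx2 to 17.2-fold lower. For Tdgf1, with 0 UMIs in Epi-NMP, the bound set by the floor of 3 counts became 94.5-fold. Of 2907 log2 ratios of 323 genes named by rule, 304 (in 151 genes) left their main interval. No gene past 2-fold changed sign, while some within 2-fold did, among them Epas1 (0.31 to -0.49) and Gata4 (-0.38 to 0.24). The causes were not tested. Ratios of Hox genes with fewer than 10 UMIs in Epi-CE are limited by those counts. No paired analysis was possible because each group has 1 library.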
